A study of Mus musculus with 2 samples.

Results

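Polycomb proteins keep developmental genes silent by modifying histones. Polycomb repressive complex 2 (PRC2) adds methyl groups to lysine 27 of histone H3 (H3K27), and Polycomb repressive complex 1 (PRC1) adds ubiquitin to lysine 119 of histone H2A (H2AK119). The Polycomb repressive deubiquitinase (PR-DUB) takes that ubiquitin off again, and the KDM6 demethylases take the methyl groups off H3K27. The genes described here encode 33 proteins of this system, chosen by their names from the 16302 gene symbols in the data. PRC2 accounted for 11 of them, PRC1 for 18, PR-DUB for 3 and the demethylases for 1. All 33 were listed in both libraries, 1 time each.

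The libraries came from astrocytes cultured from the dentate gyrus (DG) of adult C57BL/6 mice. One group was wildtype (WT) and the other lacked β-arrestin1 (β-arr1 KO, the gene Arrb1), a scaffold protein of G protein-coupled receptor signalling that also acts in the nucleus. Each group was 1 library made from pooled cDNA, the mice lacked the gene in all cells and not in astrocytes alone, and the labels do not say how many animals each pool held. With 1 library per group no difference could be tested against an error between replicates, so the ratios of KO to WT below describe these 2 libraries only.

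Levels are FPKM, sequenced fragments scaled to the length of the transcript and the depth of the library, so they can be compared between genes. The medians over the listed genes were 7.04 FPKM in WT against 7.16 in KO, and the depth was estimated at 9.36 M fragments for WT and 9.64 M for KO. Arrb1 was at 7.62 FPKM in WT against 2.72 in KO (ratio 0.358, 95% counting interval 0.300 to 0.424), so that the knocked-out gene was lower but still listed in the library labelled KO. Gfap, the intermediate filament of astrocytes, was at 189 FPKM and 192 FPKM. Markers of other cells were present too. The summed levels of 8 microglia markers were 427 FPKM in WT against 341 in KO, with Cd68 below the limit of 2/3 (ratio 0.645). The 10 markers of the oligodendrocyte lineage summed to 86.4 and 128 FPKM, with Olig2 (2.11), Pdgfra (1.93) and Olig1 (1.71) among the 4 above 3/2 and Mog not listed in WT. The 9 astrocyte markers summed to 299.6 and 343 FPKM, with Aqp4 (1.92), S100b (1.77) and Aldoc (1.60) among the 4 above 3/2 and Gjb6 not listed in WT. Skeletal muscle markers summed to 36.7 and 83.4 FPKM, with Tnnt1 (9.17) and Acta1 (4.78) among the 3 above 3/2 and Myod1 not listed in WT. The third was Myog, at 0.160 FPKM in WT against 4.12 in KO (ratio 25.7, interval 6.78 to 218). Mural and fibroblast markers summed to 2911 and 2710.3 FPKM. Most of that sum was Acta2, at 2478 FPKM in WT against 2469 in KO (ratio 0.996). Dcn (0.136), Col1a1 (0.564) and Rgs5 (0.615) were below 2/3, Lum was not listed in KO and Pdgfrb was in neither table. Endothelial markers summed to 44.9 and 35.6 FPKM, with Pecam1 (1.72) and Flt1 (1.71) above 3/2 and Cdh5 (0.507) below 2/3. Neuron markers summed to 65.2 and 81.4 FPKM, mostly Tubb3 (44.7 and 59.8 FPKM) and Map2 (18.8 and 18.5 FPKM). Of the 3 at 1 FPKM or more, 1 was above 3/2. Rbfox3, Snap25, Syt1, Slc17a7 and Gad1 were each below 1 FPKM in both libraries, and Dcx was not listed in WT. The part of these other cells in the Polycomb levels was not tested, and in such bulk libraries fewer cells of a type and less RNA per cell cannot be told apart.

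The promoter sequences of Pcgf5, Phf19 and Cbx7 are shown here because these were the 3 Polycomb genes whose ratios passed the limits used throughout, above 3/2 or below 2/3. Each is the 250 bases before a RefSeq start site, on the strand of the gene, matched base for base to the mm9 assembly (NCBIM37), in which all positions here are given. Capitals mark CG dinucleotides, the sites at which mammalian DNA is methylated and which are dense in CpG islands, where PRC2 and the CXXC protein Kdm2b are known to bind. Pcgf5 has 3 RefSeq start sites. The WT row of the deposited table began 206 bases after the first of them, and the KO row began at the second, so both are given.
Pcgf5, first start site (chr19:36422569-36422818, plus strand): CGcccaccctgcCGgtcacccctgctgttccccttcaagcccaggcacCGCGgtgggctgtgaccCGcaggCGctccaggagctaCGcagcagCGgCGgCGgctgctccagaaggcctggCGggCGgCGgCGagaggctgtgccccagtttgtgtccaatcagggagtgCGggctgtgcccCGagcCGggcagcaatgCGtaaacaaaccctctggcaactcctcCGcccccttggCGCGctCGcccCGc
Pcgf5, second start site (chr19:36453307-36453556, plus strand): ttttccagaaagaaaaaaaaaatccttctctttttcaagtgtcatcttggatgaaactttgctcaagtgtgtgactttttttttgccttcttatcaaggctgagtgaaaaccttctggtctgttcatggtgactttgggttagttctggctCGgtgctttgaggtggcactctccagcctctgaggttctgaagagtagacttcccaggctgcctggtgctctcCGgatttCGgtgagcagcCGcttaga
Phf19 (chr2:34769497-34769746, minus strand): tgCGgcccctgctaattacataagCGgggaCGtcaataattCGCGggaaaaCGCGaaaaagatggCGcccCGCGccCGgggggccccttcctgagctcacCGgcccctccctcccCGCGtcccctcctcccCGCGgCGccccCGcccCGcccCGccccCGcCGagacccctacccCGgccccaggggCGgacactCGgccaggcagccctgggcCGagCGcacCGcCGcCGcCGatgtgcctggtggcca
Cbx7 (chr15:79763077-79763326, minus strand): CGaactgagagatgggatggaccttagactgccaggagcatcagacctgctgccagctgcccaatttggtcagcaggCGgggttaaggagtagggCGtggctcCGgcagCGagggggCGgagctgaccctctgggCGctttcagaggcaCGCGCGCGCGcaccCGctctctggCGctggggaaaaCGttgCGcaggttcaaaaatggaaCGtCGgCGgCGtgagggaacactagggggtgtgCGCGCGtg
The first Pcgf5 sequence holds 23 CG dinucleotides and the second holds 4. Phf19 has 31 and Cbx7 has 23. Over 39 RefSeq windows of 28 Polycomb genes the median was 22 CG (range 1 to 43), against 15.0 in 11785 windows of 9173 other genes at 1 FPKM or more. The median GC content was 66.4% and 60.0%. Bap1 was at the upper end with 43 CG, and a Phc2 and an Aebp2 window were at the lower end with 1 CG each. Pcgf1, Cbx2, Rybp, Yaf2 and Kdm6b had no entry.

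In the 250 bases before each RefSeq start, both strands were searched for TTTGGCGC or TTTCCCGC, letters of the E2F family of cell cycle factors. They occurred in 2 of the 39 windows, those of Phf19 and Suz12 (5.13%, against 2.33% of the other windows). The cAMP response element TGACGTCA occurred in 1 window, that of Cbx8 (2.56%, against 2.56%). CCAAT, the box bound by NF-Y, occurred in 14 windows (35.9%, against 35.2%), among them those of Cbx7 and of the first Pcgf5 start. A match describes the letters only.

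Few Polycomb genes passed the limits. Of the 33 genes, 2 were above 3/2 (Pcgf5 and Cbx7), 1 was below 2/3 (Phf19) and 30 lay between the limits. That is 9.09% past the limits, against 17.8% of the 12646 genes at 1 FPKM or more in WT, KO or both (9.56% above 3/2 and 8.28% below 2/3), and against 14.6% of those listed in both tables. The ratios ran from 0.610 to 1.80, with 18 above 1 and 15 below 1. Their median log2 ratio was 0.05, against 0.02 over all genes listed in both, and the median size of the log2 ratio without its sign was 0.17, against 0.19. The median level of the Polycomb genes was 9.10 FPKM in WT and 8.66 in KO, and that of the 12646 genes was 10.2 FPKM in both. Of the 5 Polycomb genes below 5 FPKM in both libraries, 2 were past the limits (18.5% of all such genes with at least 1 FPKM in both), and of the 28 at 5 FPKM or more, 1 was (10.1% of all such genes). Of the 10 whose start or end differed between the tables, 2 were past the limits (15.8% of all such genes), and of the 23 with equal bounds, 1 was (13.8%).

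**Figure D1:**
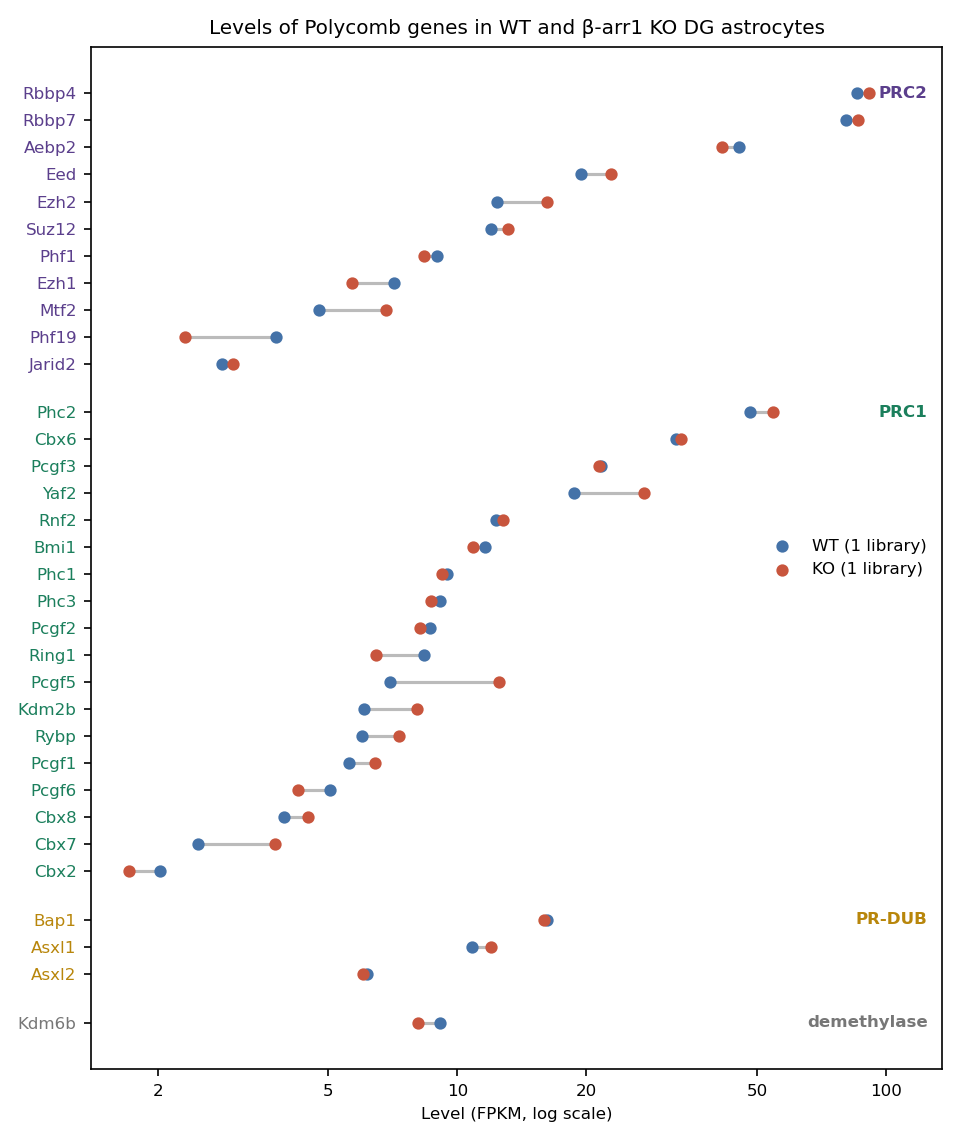
Levels of the 33 Polycomb genes in FPKM on a log axis, grouped by complex, with WT in blue, KO in red and 1 library each. The pairs lie close together for most genes, and the widest gaps are those of Pcgf5 (6.95 and 12.5 FPKM), Phf19 (3.78 and 2.31 FPKM) and Cbx7 (2.49 and 3.76 FPKM).

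The counting error of each ratio was estimated from the fragments behind it. The 95% interval left out a ratio of 1 for 15 of the 33 genes, against 40.8% of the 11838 genes for which it could be computed. It holds counting error only, not the spread between cultures, and it assumes the longest transcript. With the shortest coding transcript, the intervals of Ezh2, Rbbp4, Aebp2, Mtf2, Cbx7, Phc2 and Kdm2b would include 1.

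**Figure D2:**
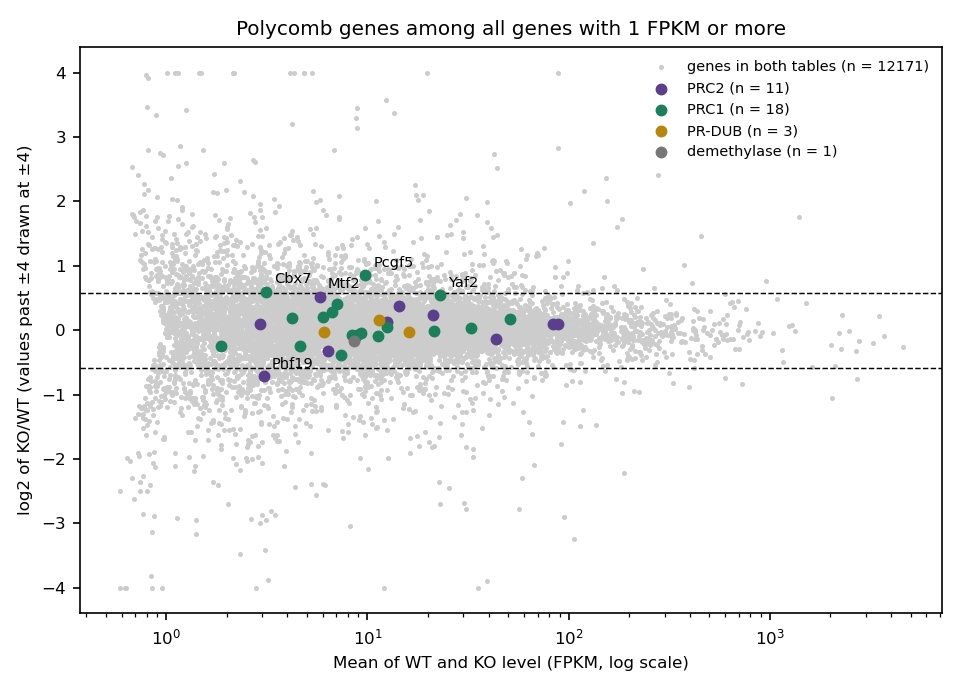
Log2 ratio of KO to WT against the mean level in FPKM (log axis) for the 12171 genes listed in both tables (grey) and the Polycomb genes by complex, with dashed lines at 3/2 and 2/3. Pcgf5, Cbx7 and Phf19 lie outside the lines, and Yaf2 (1.46) and Mtf2 (1.43) lie just inside the upper one.

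PRC2 was fully listed, and 10 of its 11 genes lay between the limits. Its median log2 ratio was 0.09, with 7 genes higher and 4 lower in KO. The counting interval left out 1 for 7 of the 11, against 40.8% of all genes for which it could be computed. The catalytic subunits differed in direction. Ezh2, the H3K27 methyltransferase typical of dividing cells, was at 12.4 FPKM in WT against 16.2 in KO (ratio 1.31, interval 1.12 to 1.53). With the shortest coding transcript of Ezh2 the interval would be 0.974 to 1.76. Ezh1, its less active paralog typical of resting cells, was at 7.11 FPKM in WT against 5.68 in KO (ratio 0.799, interval 0.666 to 0.957). The level of Ezh2 was thus 1.74 times that of Ezh1 in WT and 2.85 times in KO, and Ezh2 made up 63.5% and 74.0% of their sum. The sum itself was 19.5 FPKM in WT against 21.8 in KO. Neither gene passed the limits.

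The 4 core subunits were all slightly higher in KO, with ratios between 1.07 and 1.17. Eed, which binds trimethylated H3K27 and activates the enzyme, was at 19.4 FPKM in WT against 22.8 in KO. Suz12, the scaffold of the complex, was at 12 FPKM in WT against 13.1 in KO (ratio 1.09, interval 0.959 to 1.23). The histone chaperone subunits were the highest of all 33 genes. Rbbp4 (chr4:128984344-129012630 in WT, minus strand, NCBI gene 19646) was at 85.3 FPKM in WT against 91.3 in KO (ratio 1.07, interval 1.02 to 1.12). Its paralog Rbbp7 was at 80.5 FPKM in WT against 85.9 in KO, and each kept its share, with Rbbp4 at 51.5% of the pair in both libraries. Both chaperones also serve other histone complexes, and the level of Rbbp4 was 7.11 times that of Suz12 in WT and 6.99 times in KO. At the Rbbp4 locus the KO table alone listed an overlapping row, Sync (chr4:128964815-128987779, 11.9 FPKM), a neighbour that encodes a muscle intermediate filament protein. With that row added, the KO level was 103 FPKM and the ratio 1.21.

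The accessory subunits, which steer PRC2 to chromatin, held the only PRC2 gene past a limit. Phf19, a Polycomb-like protein that reads methylated H3K36, was at 3.78 FPKM in WT against 2.31 in KO. The ratio was 0.610 (log2 -0.71, interval 0.456 to 0.814), and it rested on about 127 fragments in WT and 80 in KO. The gene lies on the minus strand at chr2:34749275-34769589 in the WT table (NCBI gene 74016). In the KO table its 5′ end was 93 bases shorter and fell exactly on the RefSeq start site, while the WT row reached into the upstream sequence printed above. The genes of the other Polycomb-like proteins, which share its domains, lay inside the limits. Mtf2 was at 4.75 FPKM in WT against 6.81 in KO (ratio 1.43, interval 1.18 to 1.75), and Phf1 at 8.96 FPKM in WT against 8.34 in KO (ratio 0.931). Where only the shortest coding transcript of Mtf2 is assumed, its interval widened to 0.784 to 2.67. The sum of the 3 was 17.5 FPKM in both libraries. Within it Mtf2 made up 27.1% in WT and 39.0% in KO, Phf1 51.2% and 47.8%, and Phf19 21.6% and 13.2%. Jarid2 and Aebp2 define the other form of PRC2, which contains no Polycomb-like protein. Jarid2 (chr13:44826143-45017012, plus strand, NCBI gene 16468), the lowest PRC2 gene in WT, was at 2.83 FPKM in WT against 3.0 in KO (ratio 1.06, interval 0.881 to 1.28). Aebp2 was much higher, at 45.3 FPKM in WT against 41.5 in KO (ratio 0.916, interval 0.865 to 0.970). Its level was 16.0 times that of Jarid2 in WT and 13.8 times in KO.

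**Figure D3:**
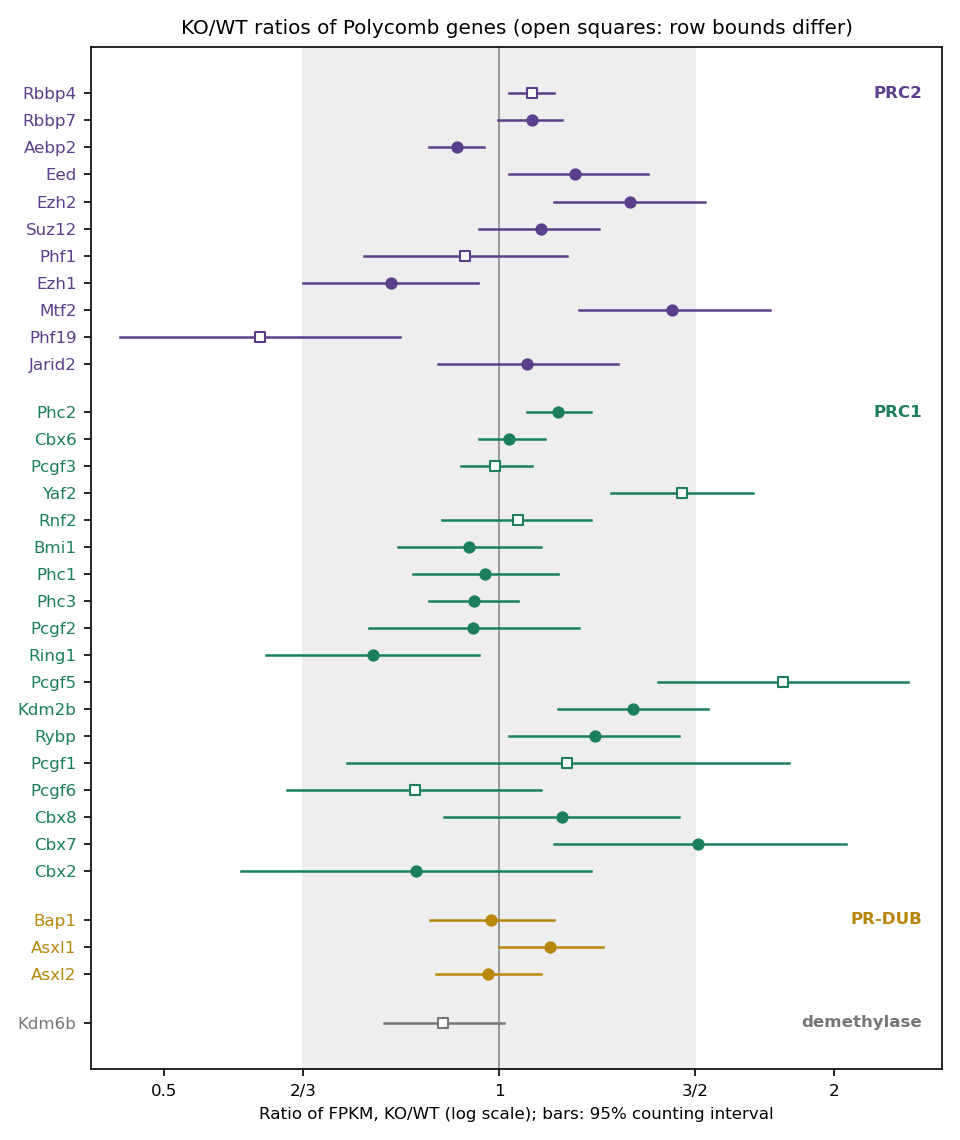
Ratio of KO to WT on a log axis for each Polycomb gene with its 95% counting interval, with the range between 2/3 and 3/2 shaded and open squares for genes whose bounds differ between the tables. Pcgf5 (1.80) and Cbx7 (1.51) lie above the shaded range and Phf19 (0.610) below it, and all 3 intervals reach back into it.

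PRC1 held 2 of the 3 genes past the limits, both above 3/2. That is 11.1% of its 18 genes, against 17.8% of all genes past either limit and 9.56% above 3/2. Its median log2 ratio was 0.04, with 10 genes higher and 8 lower in KO. The counting interval left out 1 for 7 of the 18, against 40.8% of all genes for which it could be computed. The RING proteins are the E3 ligases that ubiquitinate H2AK119. Rnf2 (RING1B) was at 12.3 FPKM in WT against 12.8 in KO (ratio 1.04). Ring1 (RING1A) was at 8.38 FPKM in WT against 6.45 in KO (ratio 0.770, interval 0.617 to 0.959), the lowest PRC1 ratio and the nearest to 2/3 among the genes inside the limits. The level of Rnf2 was 1.47 times that of Ring1 in WT and 1.98 times in KO.

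The PCGF proteins pair with the RING proteins and define the PRC1 variants. Pcgf5 had the highest ratio of all 33 Polycomb genes. It was at 6.95 FPKM in WT against 12.5 in KO, a ratio of 1.80 (log2 0.85, interval 1.39 to 2.33) that rested on about 96 and 178 fragments. Its rows on the plus strand of chromosome 19 (NCBI gene 76073) were not the same stretch. They spanned chr19:36423025-36531672 in WT and chr19:36453557-36531256 in KO, so that the KO row began 30532 bases further downstream. FPKM divides by the length of the transcripts assigned to a row, and the tables do not give those lengths. The part of this difference in the ratio was not tested. Of the 2 GENCODE transcripts, one (9 exons, 1497 bases) begins exactly at the start of the KO row. The other (10 exons, 1626 bases) begins at the last of the RefSeq start sites.

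The other 5 PCGF genes lay between 0.840 and 1.15. Pcgf3, the highest, was at 21.6 FPKM in WT against 21.4 in KO. Bmi1 (PCGF4), the stem cell regulator known for repressing the Cdkn2a locus, was at 11.6 FPKM in WT against 10.9 in KO (ratio 0.939, interval 0.811 to 1.09). Its closest paralog Pcgf2 (MEL18), which also belongs to canonical PRC1, was at 8.61 FPKM in WT against 8.16 in KO. Pcgf6, found in the variant with E2F6 and MGA, was at 5.05 FPKM in WT against 4.24 in KO. Pcgf1, found in the variant with KDM2B and BCOR, was at 5.59 FPKM in WT against 6.43 in KO (ratio 1.15). With about 38 and 45 fragments Pcgf1 had the widest interval, 0.730 to 1.82. The PCGF sum was 59.4 FPKM in WT against 63.6 in KO. Pcgf3 was the largest part of it (36.3% and 33.6%), and Bmi1 came next in WT (19.6%, and 17.2% in KO). In KO the next was Pcgf5 (19.6%, and 11.7% in WT). Pcgf2 made up 14.5% and 12.8%, Pcgf1 9.41% and 10.1%, and Pcgf6 8.50% and 6.66%.

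CBX proteins give canonical PRC1 its chromodomain, which binds trimethylated H3K27. Cbx7 was at 2.49 FPKM in WT against 3.76 in KO, with equal bounds in both tables (chr15:79746237-79763076, minus strand, NCBI gene 52609). The ratio of 1.51 (log2 0.60, interval 1.12 to 2.05) was the nearest to the upper limit from outside, and it rested on about 75 and 117 fragments. If the short coding transcript of 528 bases was the one expressed, the fragments would be 9 and 14 and the interval 0.610 to 3.96. Dividing by the median ratio of all genes or by the upper quartile, each of which was 1.01, brought Cbx7 under 3/2. Cbx6, the highest CBX gene and a neighbour 81.5 kb away, was at 32.4 FPKM in WT against 33.2 in KO (ratio 1.02). In both tables its row (chr15:79616781-79664763, minus strand) reached past the 3′ end of the GENCODE gene (chr15:79654326-79665118). The part of this longer row in the Cbx6 level was not tested. Cbx8 was at 3.94 FPKM in WT against 4.49 in KO (ratio 1.14). Cbx2, which compacts chromatin and lies 7.17 kb from Cbx8, was the lowest of all 33 genes, at 2.02 FPKM in WT against 1.71 in KO (chr11:118884343-118892584, plus strand, NCBI gene 12416, ratio 0.842, interval 0.586 to 1.21). Of the CBX sum, 40.8 FPKM in WT against 43.1 in KO, Cbx6 made up 79.3% and 76.9%, Cbx8 9.66% and 10.4%, Cbx7 6.09% and 8.72% and Cbx2 4.96% and 3.95%. The level of Cbx6 was 13.0 times that of Cbx7 in WT and 8.82 times in KO.

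PHC proteins polymerise through their SAM domains and hold PRC1 sites together. Phc2 (chr4:128331946-128430125, plus strand, NCBI gene 54383) was the highest PRC1 gene, at 48.1 FPKM in WT against 54.4 in KO (ratio 1.13, interval 1.06 to 1.21). Phc1 was at 9.47 FPKM in WT against 9.20 in KO. Phc3 was at 9.13 FPKM in WT against 8.66 in KO. Phc2 made up 72.1% of the sum in WT and 75.3% in KO.

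RYBP and YAF2 replace CBX proteins in the variant complexes and stimulate their ubiquitin ligase. Rybp was at 6.00 FPKM in WT against 7.30 in KO (ratio 1.22, interval 1.02 to 1.45). Yaf2 (minus strand, NCBI gene 67057) was at 18.7 FPKM in WT against 27.2 in KO (ratio 1.46, interval 1.26 to 1.69), just inside the upper limit. Its rows differed. The WT row spanned chr15:93114264-93168372, and the KO row spanned chr15:93070173-93167366, which is 97194 bases long against 54109 in WT. The WT table listed a separate gene there, Gxylt1 (chr15:93070173-93105573, 9.29 FPKM), a glycosyltransferase gene with no row in KO, and its start was the start of the KO Yaf2 row. Added together, Yaf2 and Gxylt1 were at 28.0 FPKM in WT against 27.2 in KO, a ratio of 0.973. The annotated transcripts of Yaf2 end within the WT row. Kdm2b, whose CXXC domain brings the PCGF1 variant to unmethylated CpG islands, was at 6.07 FPKM in WT against 8.03 in KO, with equal bounds (ratio 1.32, interval 1.13 to 1.54). With the shortest coding transcript of Kdm2b the interval would be 0.628 to 2.85.

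**Figure D4:**
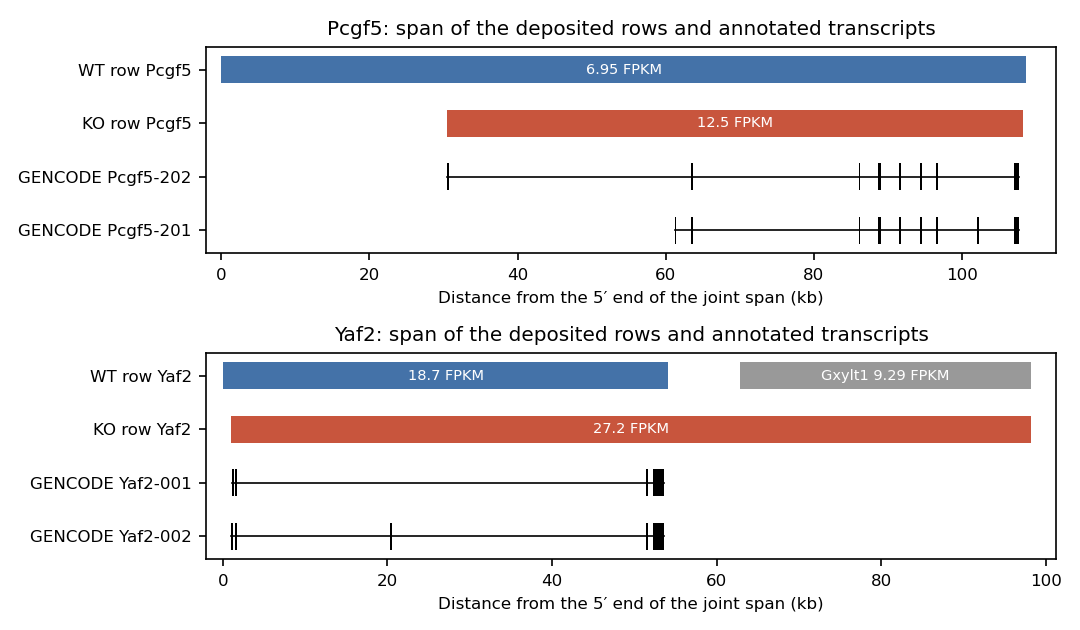
Spans of the deposited rows (bars, with their level in FPKM) and GENCODE transcripts (lines, with exons as boxes) for Pcgf5 and Yaf2, against the distance in kb from the 5′ end of the joint span. The KO row of Pcgf5 starts at the GENCODE transcript that reaches furthest upstream. The WT row of Pcgf5 starts before it, 206 bases after the first RefSeq start site, which is not drawn. The KO row of Yaf2 also covers Gxylt1 (grey, 9.29 FPKM), which the WT table lists by itself.

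**Figure D5:**
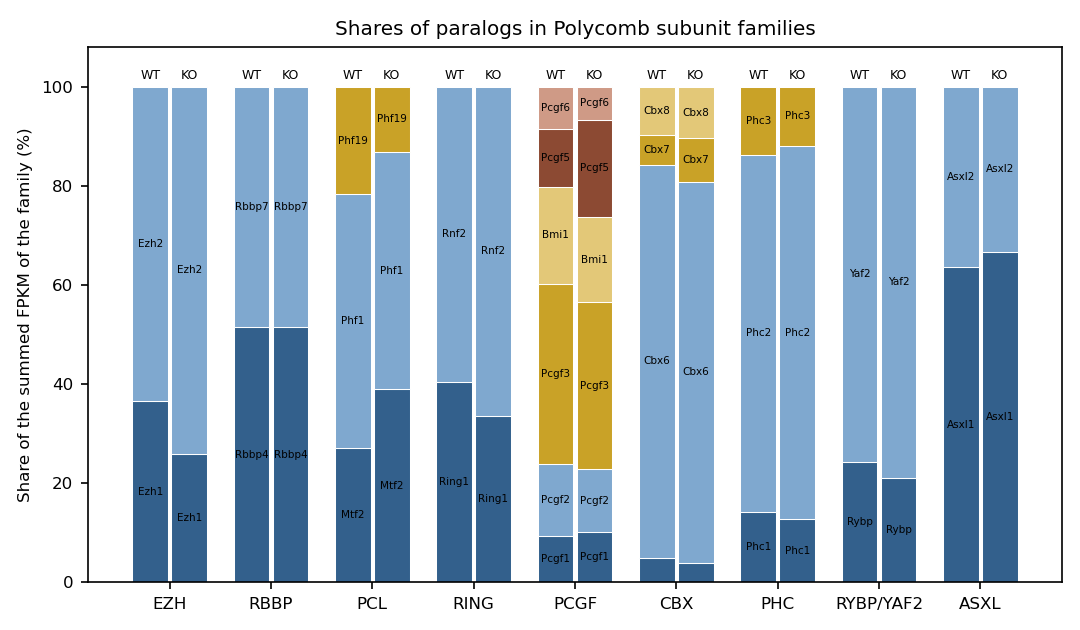
Share of each paralog in the summed FPKM of its family in WT (left bar) and KO (right bar), with labels inside the segments and Cbx2 unlabelled at the base of the CBX bars. The leading paralog of each family was the same in both libraries, and the largest shifts were those of Mtf2 (27.1% to 39.0%), Ezh2 (63.5% to 74.0%) with its mirror Ezh1 (36.5% to 26.0%), Phf19 (21.6% to 13.2%) and Pcgf5 (11.7% to 19.6%).

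PR-DUB had no gene past the limits, and its 3 ratios lay between 0.977 and 1.11, with a median log2 of -0.03. Bap1, the deubiquitinase that removes ubiquitin from H2AK119, was at 16.2 FPKM in WT against 15.9 in KO (chr14:32064675-32073115, plus strand, NCBI gene 104416, ratio 0.983, interval 0.866 to 1.12). The ASXL proteins activate it. Asxl1 was at 10.8 FPKM in WT against 12 in KO (ratio 1.11, interval 1.00 to 1.24). Asxl2 was at 6.16 FPKM in WT against 6.02 in KO (chr12:3426857-3506849, plus strand, NCBI gene 75302, ratio 0.977, interval 0.877 to 1.09). The level of Asxl1 was 1.75 times that of Asxl2 in WT and 2.0 times in KO. All 3 rows had equal bounds in both tables.

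The demethylase Kdm6b (JMJD3), which removes methyl groups from H3K27, was at 9.10 FPKM in WT against 8.11 in KO. Its ratio was 0.891 (interval 0.788 to 1.01), inside the limits. The gene lies on the minus strand of chromosome 11 (NCBI gene 216850), at chr11:69212006-69233840 in WT and chr11:69212020-69229574 in KO, with spans of 21835 and 17555 bases that differ mainly at the 5′ end. Kdm6a (UTX), its X-linked paralog, was at 6.41 FPKM in WT against 6.96 in KO (ratio 1.09, interval 0.937 to 1.26).

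Genes that work with or against the Polycomb complexes were counted against the same limits, which 17.8% of all genes passed. Of 37 further Polycomb partners, 32 had at least 1 FPKM, none was above 3/2 and 2 were below 2/3 (6.25%), with a median log2 ratio of 0.05. Mbd5, a partner of PR-DUB, was at 6.36 FPKM in WT against 3.15 in KO (ratio 0.495, interval 0.411 to 0.596). Auts2, a PRC1 partner best known in neurons and named here after its values were seen, was at 4.33 FPKM in WT against 2.23 in KO (ratio 0.514). Of 15 Trithorax genes, which encode the opposing COMPASS methyltransferases of histone H3 lysine 4 and their partners, 14 lay between the limits. The 1 below 2/3 was Pagr1a, listed under an older symbol at 52.4 FPKM in WT against 14.6 in KO (ratio 0.278). The KO table lists another gene, Mvp (30.8 FPKM), inside the span of the WT row, and Mvp is not listed in WT.

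Few of the Hox genes, the classical Polycomb targets, were listed. Of 39, 11 were listed in WT and 15 in KO. The Ink4 genes, cell cycle inhibitors repressed by PRC1 and PRC2 in young dividing cells, were listed in both libraries. Cdkn2a was at 28.1 FPKM in WT against 24.2 in KO (ratio 0.861), and Cdkn2b was at 32.1 FPKM in WT against 25 in KO (ratio 0.781).

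Since EZH2 is known to follow cell division, proliferation genes were placed beside it. Whether cell division had a part in the Ezh2 ratio was not tested. Of 18, 17 lay between the limits, 10 were higher and 8 lower in KO, and the median log2 ratio was 0.02. The highest ratio was that of Rrm2 (1.30, interval 1.19 to 1.43). Mki67 was at 14.5 FPKM in WT against 13.8 in KO (ratio 0.954). Top2a was at 25.2 FPKM in WT against 28.3 in KO (ratio 1.12). The gene below 2/3 was Tyms, the thymidylate synthase of S phase, at 16.4 FPKM in WT against 3.68 in KO (ratio 0.225, interval 0.185 to 0.272).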

How the data were processed

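RNA from cultured WT and β-arr1 KO DG astrocytes (1 library each) was sequenced as paired reads. The authors aligned the reads to mm9 with TopHat (version 1.4.0 per the labels) and estimated expression with Cufflinks. The authors deposited 1 FPKM table per library, scaled for length and depth, and read counts are not among its columns.

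Tables were joined by symbol, keeping the highest row where a symbol recurred. Ratios used no pseudocount. Genes at 1 FPKM or more in WT, KO or both were compared, with the limits of 3/2 and 2/3 of the study. The study, with its own set of analysed genes, reported a smaller share past these limits than the 17.8% counted here. With 1 library per group no p-value was computed. Depth came from the steps of values under 0.15 FPKM in genes with 1 transcript over 1000 bases (65.4% of WT and 64.8% of KO values lay within 2% of a step). Fragments used the longest GENCODE transcript, and intervals are exact Clopper-Pearson intervals. A shorter expressed transcript would widen them, and they do not cover unequal row bounds (58.0% of genes had equal ones) or reads shared between paralogs. Starts were moved by 1 to count from 1. RefSeq promoters (GRCm38.p6) were placed on NCBIM37 by exact sequence match.

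The Polycomb genes and the lists were chosen with earlier results of these data known. All 33 were named, with positions for those past a limit, the highest and lowest of each complex and those sharing a row. Other lists gave up to 5 genes past a limit at 5 FPKM or more, plus Kdm6a, Cdkn2a, Cdkn2b, Mki67, Top2a and Arrb1. Acta2, Myog and the neuron markers other than Dcx were named after their values were seen. Not every gene so chosen from these lists is reported here. The computation was tested on simulated data. Alternatives varied the minimum level, pseudocount, scaling, limits and shared or overlapping rows. Tools were Python 3.11.15, pandas 2.3.3, numpy 2.4.6, matplotlib 3.10.9 and scipy 1.17.1.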

Additional observations from a re-analysis of the deposited data

How the results depend on the processing

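The 3 Polycomb genes past the limits rested on the settings to different degrees. At a minimum of 5 FPKM, or with a pseudocount of 1 FPKM, 1 of them was past the limits (Pcgf5), which left 0 in PRC2 and 1 in PRC1. With limits of 2 and 1/2 the number was 0, in PRC2 and PRC1 alike. With rows of equal bounds only, 1 was past them (Cbx7), which left 0 in PRC2 and 1 in PRC1. A pseudocount of 0.1 FPKM and rescaling to the median ratio or to the upper quartile each left 1 in PRC1 (Pcgf5), since Cbx7 then lay under 3/2. Over all settings the ratio ran from 1.70 to 1.80 for Pcgf5, from 1.37 to 1.52 for Cbx7 and from 0.602 to 0.692 for Phf19, and none of the other 30 genes passed 3/2 or 2/3 under any of the 14 alternatives. Summing overlapping rows gave 1.21 for Rbbp4, and summing the joint span, an alternative chosen after seeing the data, gave 0.973 for Yaf2. Yaf2 thereby went from above to below a ratio of 1, and no gene past a limit changed direction. No paired analysis was possible because each group is 1 library, and no replicate could be left out. Depth limits most the ratios with the fewest fragments, about 38 for Pcgf1, 69 for Cbx2 and 75 for Cbx7 in WT.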
